A study of Rattus norvegicus with 14 samples.

Results

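The p53 pathway, the sensing of DNA breaks and the control of cell death were represented by 9 genes, Mdm4, Mdm2, Cdkn1a, Nbn, Bcl2l1, Bcl2, Bax, Cradd and Srm, out of 15154 named genes on the array. Their probes were found through the transcript accession of each probe. This gave 15 of the 30367 rat probes, of which 4 target Bcl2l1, 2 each target Mdm2, Cdkn1a and Srm, and 1 each targets the others. The brightest probe stood for its gene, and its level was the log2 of the background-subtracted signal minus the median over the probes of the same array. A level of 0 is thus the typical probe of an array, and levels are compared between groups for 1 probe at a time.

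Lateral ventricle choroid plexus (CP) was taken from Wistar rats that had been operated on at 2 months of age and were killed 2 weeks later. The groups were ovariectomized females (OVX, 3 arrays), sham-operated females (3 arrays), orchidectomized males (OOX, 4 arrays) and sham-operated males (4 arrays). Each array carried RNA of 3 animals as 1 pool, labelled with Cy3. The methods speak of 3 pools in a group where the labels give 4 arrays for each group of males, so whether all pools are independent is not stated, and the p-values measure only the spread between these pools. In whole tissue a lower number of cells of a type cannot be told apart from less RNA per cell.

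The transcription factor p53 accumulates after DNA damage and turns on genes that stop the cell cycle or start apoptosis. Mdm2 and its relative Mdm4 bind p53 and hold it in check, and nibrin, the product of Nbn, belongs with Mre11 and Rad50 to the complex that recognises double-strand breaks. Whether a stressed cell survives depends in part on the balance of the Bcl-2 family at the mitochondrion, where Bax opens the outer membrane and Bcl-2 and Bcl-xL, the product of Bcl2l1, oppose it. The CP is an epithelium that divides little and secretes the cerebrospinal fluid.

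Markers of the tissue were looked at as a check. All 12 markers of CP epithelium, Ttr and Folr1 among them, were well above background on all 14 arrays. Their mean levels ran from 5.29 (Prlr) to 8.44 (Folr1). Probes of Folr1, Ttr, Kcnj13 and Enpp2 were saturated on all 14 arrays and that of Otx2 on 13, so the top of this range is limited by the scanner. The 6 astrocyte and 6 oligodendrocyte markers were also well above background on all arrays, from -0.35 (Gfap) to 7.89 (Mbp, saturated on 8 arrays). Detection alone thus does not single out CP epithelium. Between 79.7% and 87.2% of the spots of an array were well above background, and arrays of a group correlated with r of 0.979 to 0.992 across genes, which are not independent. The arrays lay on 5 slides scanned on 2 days. Only 1 slide held both female groups, with OVX replicate 1 and sham female replicate 3. Only 1 held both male groups, with OOX replicate 4 and sham male replicates 1 and 2. Sham female replicates 1 and 2 shared a slide without OVX. OOX replicates 1, 2 and 3 lay with OVX replicate 3, and sham male replicates 3 and 4 with OVX replicate 2. Slide and group can thus not be fully told apart. The first scan day held the 3 arrays of sham females with OVX replicate 1, and the second day all the others.

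Cradd was the only one of the 9 genes that passed the test after ovariectomy, at a Benjamini-Hochberg adjusted p under 0.05 by limma over 27517 genes and unnamed probes. That test called 7.23% of all features in females, 2.74% as higher and 4.48% as lower in OVX. All calls split into 755 higher and 1234 lower, but into 98 higher and 45 lower with quantile normalization. In males none of the 9 genes passed, against 0.0618% of all features, and none passed for the difference between the effects in the 2 sexes, against 0.229%. By the methods' t-test, at an unadjusted p under 0.05 with a fold above 1.5, 1 of 9 genes passed in females (12.9% of all features) and 0 of 9 in males (2.51%). By limma at an unadjusted p under 0.05 there were 3 of 9 genes in females (22.4% of all features), 1 of 9 in males (7.69%) and 4 of 9 for the difference (11.7%). Levels of OVX and sham females did not overlap for 6 of the 9 genes. Mdm4, Mdm2, Cradd and Srm lay above sham and Nbn and Bax below, where 29.2% of all features were free of overlap. Levels of OOX and sham males overlapped for all 9 genes, and 4.36% of all features were free of overlap.

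**Figure D1:**
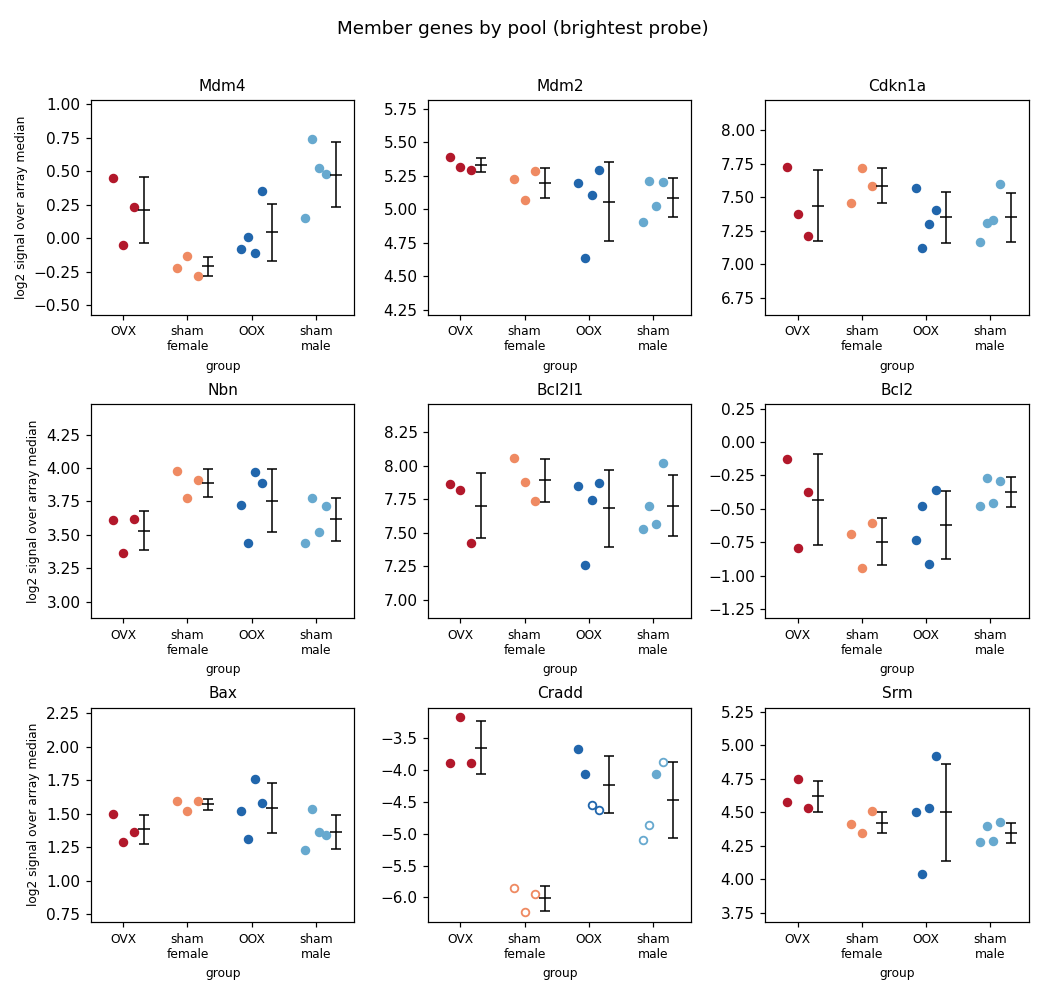
Level of each of the 9 genes (log2 signal over the array median, brightest probe) in every pool, by group. Points are pools, open points were not well above background, and bars are the mean and SD of the group (n = 3, 3, 4 and 4). The vertical scale differs between panels. For Cradd all 3 OVX pools are filled and all 3 sham female pools are open.

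Cradd encodes a death domain adaptor that joins the protein Pidd1 to caspase-2. Its level was -3.89, -3.17 and -3.88 in OVX pools, against -5.86, -6.23 and -5.95 in sham female pools. All OVX pools lay above all sham female pools, but the probe was dim. It was well above background in 3 of 3 OVX pools and in 0 of 3 sham female pools, with processed signals of 13.1 to 19.5 in OVX and 2.39 to 3.33 in sham females. Against the lowest level that counts as well above background on the sham female arrays, the mean level in OVX was at least 1.23-fold higher. Only OVX replicate 2, at -3.17, lay above the highest such lowest level on any array of the female groups (-3.75). The bound of 1.23-fold thus leans on this pool. The limma adjusted p of 0.0302 does not test this bound. It tests the difference of the levels themselves, which rests on sham female signals not well above background. No size beyond the bound is given, since no sham female pool measured the probe.

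The Cradd call depended on the treatment of the background. With normexp, a background model that draws dim probes together, the log2 difference was 0.17 with an adjusted p of 0.847. Cradd did not pass with the slide (adjusted p = 0.493) or the scan day (0.148) as a block, in the methods' t-test (0.0968), or without OVX replicate 1 (0.0790), 2 (0.0739) or 3 (0.0951) or sham female replicate 1 (0.0920) or 3 (0.0706).

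Other measures also differed between the female groups, by their sums, their medians or both. The share of spots well above background was 85.3% to 87.2% on OVX arrays and 79.7% to 82.7% on sham female arrays. The summed level of 8 fibroblast markers was 7.90 to 8.50 in OVX and 8.70 to 8.94 in sham females on the log2 scale, their median difference was -0.71, and 2 of them passed the test. The 13 measured of 14 neuron markers summed to 4.36 to 4.94 in OVX and 4.12 to 5.80 in sham females, with a median difference of -0.69 and 1 that passed. The 6 astrocyte markers summed to 4.99 to 5.77 in OVX and 5.10 to 6.10 in sham females, with a median difference of -0.50. The sum of 7 markers of endothelium and mural cells was 7.11 to 7.48 in OVX and 7.51 to 7.64 in sham females, but their median difference was 0.044, with single markers from -0.52 to 0.54. The 4 measured of 6 lymphocyte markers summed to -1.98 to -0.94 in OVX and -2.56 to -2.12 in sham females (median difference 0.63), and the 3 measured of 5 markers of dividing cells to 1.54 to 2.00 in OVX and 1.15 to 1.47 in sham females (median difference 0.52). No marker of astrocytes, endothelium and mural cells, lymphocytes or dividing cells passed. In males the median difference was 0.39 for fibroblast, 0.47 for neuron and 0.40 for astrocyte markers, opposite in sign to females. It was 0.86 for lymphocyte, -0.043 for endothelium and mural and -0.11 for dividing cell markers. The male sums of these 6 lists overlapped between groups, and none of their markers passed in males. For the remaining lists the median differences in males and females were 0.44 and 0.013 for oligodendrocyte and -0.27 and -0.20 for CP epithelium markers. They were 0.15 and 0.056 for macrophage, -0.00089 and -0.060 for ependyma and -0.25 and 0.27 for red cell markers. None of these markers passed. Oligodendrocyte markers in males ran from 0.23 to 0.73. The part of these measures in any result on the 9 genes was not tested.

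In males Cradd lay at -3.66, -4.07, -4.54 and -4.63 in OOX pools, against -5.11, -4.86, -4.06 and -3.87 in sham male pools. The groups overlapped, and the probe was well above background in 2 of 4 OOX and 1 of 4 sham male pools. The difference was 0.25 ± 0.33 (SE, 95% confidence interval -0.51 to 1.01, limma adjusted p = 0.959), and its sign turned with normexp (-0.20) and with quantile normalization (-0.075). Mean levels were -3.65 ± 0.41 in OVX (SD, n = 3), -4.23 ± 0.45 in OOX (n = 4) and -4.47 ± 0.60 in sham males (n = 4), and neighbours in this order overlapped. Sham females have no place in it other than a level not well above background. For the same reason no size is given for the difference between the effects in the 2 sexes, which did not pass (limma adjusted p = 0.110) other than with array weights (adjusted p = 0.0297).

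The reference sequence before the Cradd start is given because Cradd is the gene that passed. It was searched on both strands for AGGTCA, the half-site that estrogen and other nuclear receptors recognise as part of longer elements. Of the 33469 RefSeq promoter windows of 250 bases (assembly GRCr8), 14.1% held it. The Cradd window, chr7:31839797-31840046 on the minus strand, held it in 2 places, which start 177 and 45 bases before the transcription start and are in capitals as AGGTCA or its complement TGACCT.
Cradd: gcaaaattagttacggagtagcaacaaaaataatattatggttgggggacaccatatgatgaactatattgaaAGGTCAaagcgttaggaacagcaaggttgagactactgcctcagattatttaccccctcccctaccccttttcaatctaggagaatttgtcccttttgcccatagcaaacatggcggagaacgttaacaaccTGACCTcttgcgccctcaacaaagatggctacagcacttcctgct
These letters describe the reference sequence, and no binding was measured. Windows were given for 7 of the 9 genes, 10 windows in all, and not for Nbn and Bax. Cradd was the only gene of the 7 with this half-site.

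Mdm4 and Mdm2 are the negative regulators of p53. Mdm4 was at 0.45, -0.048 and 0.23 in OVX pools, against -0.22, -0.13 and -0.28 in sham female pools. Every OVX pool was above every sham female pool, the nearest pair by a narrow margin. The difference was 0.42 ± 0.16 (SE, 95% confidence interval 0.036 to 0.81) with a limma adjusted p of 0.187, and 0.73 within the slide that held both groups, with 1 array of each. In males Mdm4 was at -0.08, 0.01, -0.11 and 0.35 in OOX pools, against 0.15, 0.74, 0.53 and 0.48 in sham male pools. OOX replicate 4 and sham male replicate 1 made the groups overlap, and these lay on the same slide. The male difference was -0.43 ± 0.17 (95% confidence interval -0.82 to -0.037, limma adjusted p = 0.648), and within the shared slide it was -0.092.

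The Mdm4 differences thus ran in opposite directions, without passing the test in either sex. The male effect minus the female effect was -0.85 ± 0.24 (95% confidence interval -1.37 to -0.33, limma adjusted p = 0.221) and kept its sign in 25 of 25 alternatives, passing in 1 of them, array weights (adjusted p = 0.0426). By mean level the order was sham males (0.47 ± 0.24, SD, n = 4), OVX (0.21 ± 0.25, n = 3), OOX (0.044 ± 0.21, n = 4) and sham females (-0.21 ± 0.073, n = 3). Neighbours in this order did not differ beyond their spread, apart from OOX and sham females, whose pools did not overlap. OOX and sham females differ in sex, gonadectomy, slide and scan day, which cannot be told apart here. The share of all features free of overlap between them was not taken.

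Mdm2, which also carries p53 to degradation, had levels of 5.39, 5.31 and 5.29 in OVX pools, against 5.23, 5.07 and 5.28 in sham female pools. The OVX pools were higher by little, 0.14 ± 0.12 (limma adjusted p = 0.553). The dimmer Mdm2 probe, for the same transcript, differed by -0.012 ± 0.11 and its groups overlapped. In males the brightest probe was at 4.63 to 5.29 in OOX and 4.91 to 5.21 in sham males, a difference of -0.029 ± 0.17 (adjusted p = 0.982). The dimmer probe gave -0.40 ± 0.18 there (adjusted p = 0.639). The window before the Mdm2 start held the letters GGGCGG, the core of Sp1 sites, in 2 places and that of Mdm4 in 1, as did 30.5% of all windows at least once.

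Cdkn1a encodes p21, an inhibitor of cyclin-dependent kinases and the classical p53 target. Its brightest probe was at 7.72, 7.38 and 7.21 in OVX pools, against 7.46, 7.71 and 7.59 in sham female pools, and the groups overlapped. The difference was -0.15 ± 0.17 (95% confidence interval -0.56 to 0.26, limma adjusted p = 0.653). In males the levels of OOX (7.35 ± 0.19, SD, n = 4) and sham males (7.35 ± 0.18, n = 4) had means that differed by -0.000602, with a 95% confidence interval from -0.35 to 0.35. Processed signals of this probe did not overlap before scaling, at 36350 to 41143 in OOX and 27886 to 34108 in sham males. Array medians were 206 to 261 in OOX and 176 to 209 in sham males. The probe was not flagged as saturated on any array. Whether signals this bright were compressed was not tested.

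The second Cdkn1a probe, for the same transcript, gave a wider gap in females. It was at 6.59, 6.74 and 6.12 in OVX pools, against 7.65, 7.17 and 6.83 in sham female pools. All OVX pools were lower, by 0.73 on the log2 scale, but the change did not pass (-0.73 ± 0.26, limma adjusted p = 0.169) and was -0.23 within the shared slide. In males it was 0.26 ± 0.23 (adjusted p = 0.897). Over the 14 arrays the 2 probes correlated with a Pearson r of 0.54, a description only, since arrays share their scaling and groups.

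The reference sequence before the Cdkn1a start, chr20:7150682-7150931 on the plus strand of GRCr8, is given because this gene is the standard readout of p53. A p53 half-site, searched as the named 10-base consensus on both strands, was present in 6.64% of all windows. Among the 7 genes with a window only Cdkn1a held one, in capitals, which starts 201 bases before the transcription start.
Cdkn1a: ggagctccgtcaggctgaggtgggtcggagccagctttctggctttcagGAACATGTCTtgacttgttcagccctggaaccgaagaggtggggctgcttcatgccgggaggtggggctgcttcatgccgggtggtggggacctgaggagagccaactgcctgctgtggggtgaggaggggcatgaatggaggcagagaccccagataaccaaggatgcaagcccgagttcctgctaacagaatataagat

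Nbn, whose product starts the signalling from double-strand breaks, was at 3.61, 3.36 and 3.62 in OVX pools, against 3.98, 3.77 and 3.91 in sham female pools. All OVX pools were below all sham female pools. The difference was -0.35 ± 0.14 (SE, 95% confidence interval -0.68 to -0.028, limma adjusted p = 0.190) and -0.29 within the shared slide. In males Nbn was at 3.73, 3.44, 3.97 and 3.89 in OOX pools, against 3.44, 3.78, 3.52 and 3.72 in sham male pools. These overlapped, with a difference of 0.14 ± 0.16 (adjusted p = 0.947). The male minus the female effect was 0.49 ± 0.21 (adjusted p = 0.417).

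Bax, which opens the mitochondrial outer membrane and is itself a p53 target, followed Nbn across the arrays (r = 0.90 over 14 arrays). It was at 1.5, 1.29 and 1.36 in OVX pools, against 1.59, 1.52 and 1.60 in sham female pools. The OVX pools were lower by a small margin (-0.19 ± 0.12, limma adjusted p = 0.414). Bax was at 1.31 to 1.76 in OOX and 1.23 to 1.53 in sham males, with overlap (0.18 ± 0.14, adjusted p = 0.886). Its probe is spotted 10 times on each array.

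Bcl2, the founding survival gene of the family, was at -0.12, -0.79 and -0.38 in OVX pools, against -0.69, -0.94 and -0.61 in sham female pools. The groups overlapped, as OVX replicate 2 lay among the sham pools. The difference was 0.31 ± 0.20 (limma adjusted p = 0.425). In males Bcl2 was at -0.91 to -0.36 in OOX and -0.48 to -0.27 in sham males, a difference of -0.25 ± 0.16 (adjusted p = 0.807) that was 0.021 within the shared slide. Bcl2 and Mdm4 moved together across the arrays (r = 0.80 over 14 arrays), and the male minus the female effect of Bcl2 was -0.56 ± 0.25 (adjusted p = 0.421).

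**Figure D2:**
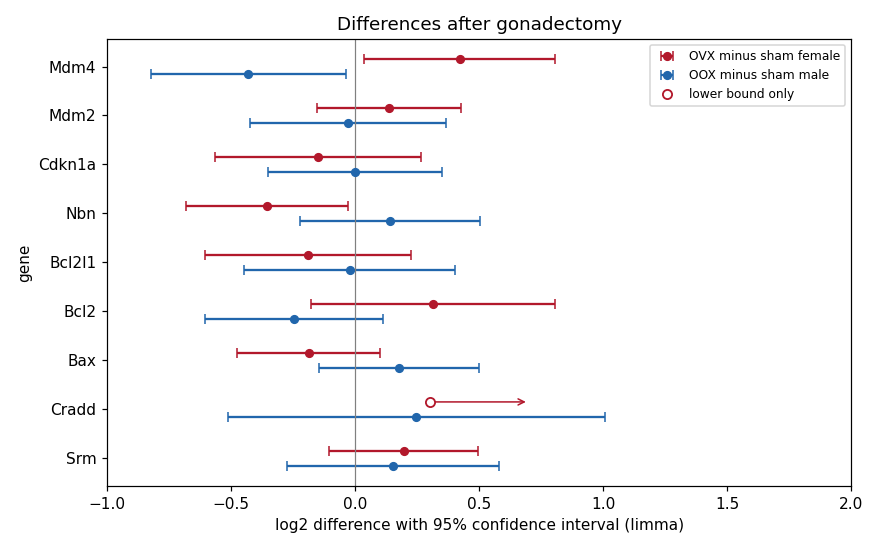
Difference between OVX and sham female pools (red, upper of each pair) and between OOX and sham male pools (blue, lower) for the 9 genes, on the log2 scale with 95% confidence intervals from limma. Cradd in females, the only one that passed the test, is an open point with an arrow at its lower bound of 0.30, since sham females were not well above background. The intervals of Mdm4 lie on opposite sides of 0 in the 2 sexes, and its adjusted p was 0.187 in females and 0.648 in males.

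Bcl2l1 was measured by 4 probes, whose differences did not run the same way. Processed signals of the brightest probe ran from 35862 to 56076 and were not flagged as saturated. At their highest they reached that of Rpl11, a list gene flagged as saturated (55702 on OVX replicate 1). Whether such signals were compressed was not tested. The brightest probe was at 7.86, 7.82 and 7.42 in OVX pools, against 8.06, 7.88 and 7.74 in sham female pools. It overlapped, with a difference of -0.19 ± 0.17 (limma adjusted p = 0.564), and in males the difference was -0.021 ± 0.19 (adjusted p = 0.987). A second probe for the same transcript followed it (r = 0.97 over 14 arrays) and differed by -0.18 ± 0.16 in females and 0.021 ± 0.19 in males. A dimmer probe for another accession gave 0.11 ± 0.20 in females and -0.33 ± 0.23 in males.

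The last Bcl2l1 probe, A_64_P054730, carries the accession of a variant transcript and was singled out after its values were seen. It was at -1.11, -1.32 and -1.13 in OVX pools, against -1.71, -1.80 and -1.95 in sham female pools. It was at -1.38, -1.44, -1.40 and -1.76 in OOX pools, against -0.53, -1.09, -0.97 and -0.95 in sham male pools. All OVX pools were thus above, and all OOX pools below, the sham pools of their sex, and the probe was well above background on all 14 arrays. In both sexes and in opposite directions 0.395% of all probes were free of overlap.

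In a fit over probes in place of genes, which called 6.79% of probes in females, the variant probe was higher in OVX by 0.63 ± 0.13 (SE, limma adjusted p = 0.0445) and by 0.84 within the shared slide. In males it differed by -0.61 ± 0.17 without passing (adjusted p = 0.486) and by -0.96 within the shared slide. That slide held OOX replicate 4, the lowest OOX pool (-1.76), which lay apart from the other OOX pools. It was set against the mean of sham male replicates 1 (-0.53) and 2 (-1.09), the highest and lowest sham male pools. The male minus the female effect was -1.24 ± 0.22 (95% confidence interval -1.71 to -0.78) and passed (adjusted p = 0.0379, against 0.257% of all probes). By mean level the order was sham males (-0.88 ± 0.25, SD, n = 4), OVX (-1.19 ± 0.12, n = 3), OOX (-1.50 ± 0.18, n = 4) and sham females (-1.82 ± 0.12, n = 3). The pools of OOX and sham females overlapped, and the other neighbours in this order lay close to each other without overlap. All neighbours in this order differ in sex. Sham males and OVX differ in gonadectomy as well, and OOX and sham females in gonadectomy, slide and scan day. The share of all features free of overlap between neighbours was not taken.

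These calls were lost in most alternatives. The female difference kept its sign in 18 of 18 alternatives but passed in 4 of them, and in none that left out a pool (adjusted p 0.0944 to 0.140). The difference between the sexes kept its sign in 24 of 24 alternatives and passed in 8, and among those that left out a pool only without OOX replicate 2 (0.0469) and without sham male replicate 1 (0.0329). With normexp the female difference was 0.33 (adjusted p = 0.330). Blocked by slide or by scan day, the female difference had an adjusted p of 0.548 or 0.286, and the difference between the sexes one of 0.333 or 0.170. With the deposited log2 table the difference between the sexes just missed the threshold (0.0516), and with array weights it had an adjusted p of 0.0117.

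**Figure D3:**
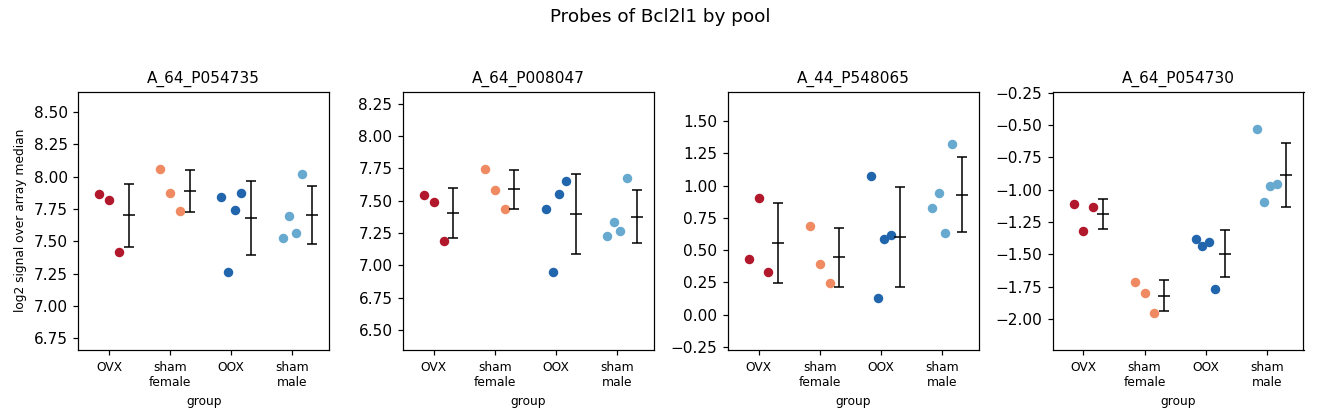
Levels of the 4 Bcl2l1 probes (log2 signal over the array median) in every pool, from the brightest on the left to the variant probe A_64_P054730 on the right, with the mean and SD of each group (n = 3, 3, 4 and 4) beside the points. Each panel spans 2 log2 units. Only on the right do OVX pools lie above all sham female pools and OOX pools below all sham male pools.

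RefSeq (GRCr8) lists 4 separate Bcl2l1 start windows, and the 60 bases before each start are given to show how far they differ. Which start the transcript of a probe uses is not given in the sources used here. All are on the minus strand of chromosome 3, at chr3:161764776-161764835, chr3:161763251-161763310, chr3:161763757-161763816 and chr3:161763386-161763445 in the order below, with no part in capitals.
Bcl2l1 start 1: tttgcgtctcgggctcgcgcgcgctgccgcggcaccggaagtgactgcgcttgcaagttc
Bcl2l1 start 2: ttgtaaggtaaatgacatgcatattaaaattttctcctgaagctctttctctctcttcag
Bcl2l1 start 3: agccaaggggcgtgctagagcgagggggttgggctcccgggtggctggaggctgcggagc
Bcl2l1 start 4: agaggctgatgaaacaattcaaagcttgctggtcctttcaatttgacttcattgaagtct
None of the 4 windows of 250 bases before these starts held the nuclear receptor half-site, the E-box CACGTG, the Sp1 core GGGCGG or the p53 half-site.

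Srm encodes spermidine synthase, an enzyme of polyamine synthesis. It was at 4.58, 4.74 and 4.53 in OVX pools, against 4.41, 4.35 and 4.51 in sham female pools. The OVX pools lay above, the nearest pair almost level, by 0.20 ± 0.12 (limma adjusted p = 0.414). In males it was at 4.50, 4.04, 4.53 and 4.92 in OOX pools, against 4.28, 4.39, 4.28 and 4.43 in sham male pools, a wide spread in OOX with a difference of 0.15 ± 0.19 (adjusted p = 0.956). Its second probe gave the opposite sign in males, at 3.31, 2.96, 3.29 and 3.28 in OOX pools, against 3.39, 3.56, 3.37 and 3.46 in sham male pools. All OOX pools were lower there (-0.24 ± 0.13, adjusted p = 0.742). The Srm window held CACGTG, the E-box that Myc binds, in 1 place, 173 bases before the start, and GGGCGG in 4, while 5.59% of all windows held CACGTG.

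The patterns most like those of the genes, by Pearson r over the 14 arrays among 11115 genes well above background and not saturated, were found for each gene well above background on all arrays. Dlg1 (0.92) and Spaca6 (0.91) were closest to Mdm4, Elf5 (0.94) and Jpt2 (0.92) to Mdm2, Ctnnal1 (0.89) and Lage3 (0.84) to Cdkn1a, and Hccs (0.96) and Wdr20 (0.95) to Nbn. Esrra (0.95) and Dad1 (0.94) were closest to Bcl2l1, Kif26a (0.84) and Spaca6 (0.83) to Bcl2, Erh (0.94) and Mrps31 (0.92) to Bax, and Upk1b (0.94) and Wars2 (0.93) to Srm. Spaca6 thus stood close to both Mdm4 and Bcl2. Arrays share scaling, slide and group, so these values are descriptions.

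These pathways were followed more widely through 6 lists, which include the 9 genes. The lists held 128 measured genes, of which 3, Cradd among them, rose and 0 fell in OVX, against 2.74% and 4.48% of all features. None passed in OOX. The counts that follow also include the 9 genes and are not separate from those given above. At an unadjusted p under 0.05 there were 13 of 128 in females, against 22.4% of all features, and 9 of 128 in males, against 7.69%. Levels did not overlap for 12 genes above and 15 below in OVX, against 14.5% and 14.7% of all features, and for 3 above and 1 below in OOX, against 2.53% and 1.82%. The median difference of the lists lay between -0.15 and 0.056 in females, where that of all genes was -0.069, and between -0.030 and 0.043 in males, where it was 0.017.

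Of the list for sensing and repair of DNA breaks 27 of 33 genes were measured, and 2 rose in OVX, where 2.74% of all features were called higher. Dclre1c encodes Artemis, the nuclease that opens DNA ends for joining. It was at 1.92, 1.38 and 1.73 in OVX pools, against 0.68, 0.80 and 0.48 in sham female pools. All OVX pools were higher, by 1.02 ± 0.18 (limma adjusted p = 0.0401) and by 1.44 within the shared slide. Chek2, the checkpoint kinase that acts below ATM and phosphorylates p53, was at -2.74, -2.83 and -2.69 in OVX pools, against -3.59, -3.52 and -3.47 in sham female pools. It was higher by 0.77 ± 0.12 (limma adjusted p = 0.0401), with 0.73 within the shared slide.

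Both genes were well above background in all pools, but the Chek2 probe was dim. Its processed signals were 14.5 to 18.7 in sham females and 24.0 to 44.8 in OVX, where Cradd in OVX had 13.1 to 19.5. Dclre1c passed with normexp (0.92, adjusted p = 0.0262). It did not pass with quantile normalization (1.04, adjusted p = 0.0694), the slide (1.44, adjusted p = 0.532) or the scan day (1.26, adjusted p = 0.199) as a block, the methods' t-test (1.02, adjusted p = 0.0979), or when any female pool but sham female replicate 2 was left out (0.90 to 1.17, adjusted p 0.0790 to 0.125). Chek2 did not pass in those settings either (0.50 to 0.81, adjusted p 0.0790 to 0.534), and with normexp its difference was 0.12 (adjusted p = 0.849). In OOX the differences were 0.31 ± 0.22 for Dclre1c and 0.17 ± 0.15 for Chek2, with overlap. The difference between the sexes was -0.71 ± 0.30 (adjusted p = 0.417) and -0.60 ± 0.19 (adjusted p = 0.298). Mre11 and Rad50, the partners of nibrin, named here for that role after their values were seen, differed by -0.12 ± 0.16 and 0.050 ± 0.13 in females.

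**Figure D4:**
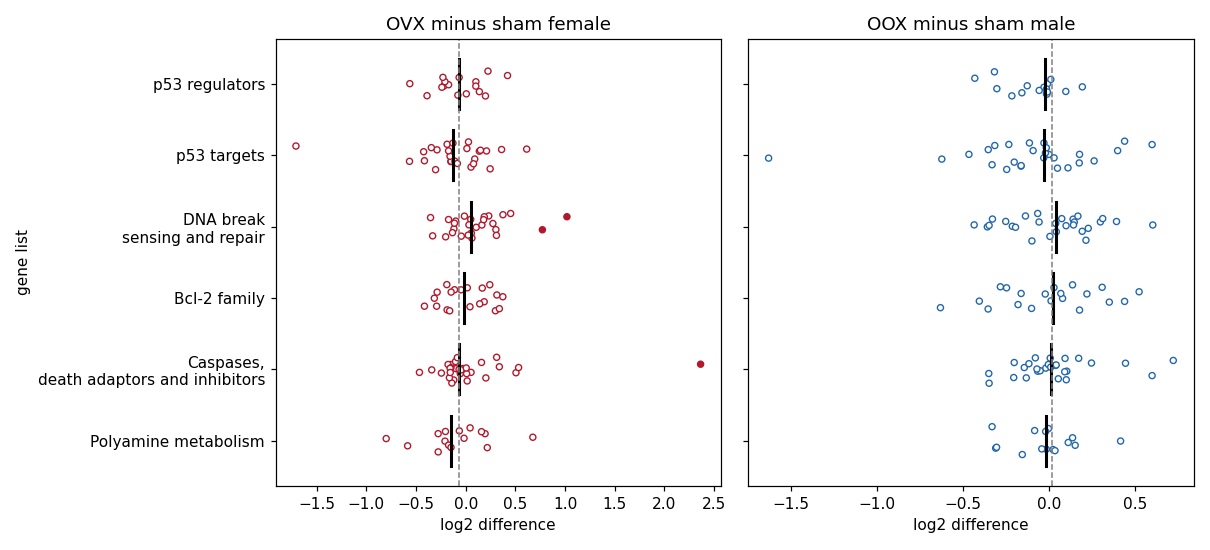
Differences of the measured genes of 6 lists on the log2 scale, OVX minus sham female on the left and OOX minus sham male on the right. Points are genes, filled where limma's adjusted p was under 0.05, black bars are list medians and the dashed line is the median of all genes (-0.069 and 0.017). The 3 filled points are Cradd, Dclre1c and Chek2 in females, and the place of Cradd rests on sham female pools not well above background.

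Of 21 p53 regulators 16 were measured and none passed. The smallest p in females was that of Hipk2, a kinase that phosphorylates p53 (-0.56 ± 0.19, limma adjusted p = 0.139, -0.21 within the shared slide). In males, beside Mdm4, it was that of Rpl11, a ribosomal protein that binds Mdm2 (adjusted p = 0.650), whose probe was saturated on all 14 arrays, so no fold is given. Of 32 p53 targets 27 were measured and none passed, with Gadd45a, a growth arrest gene, at -0.57 ± 0.16 in females (adjusted p = 0.0933, -0.18 within the shared slide) and Bbc3, which encodes the death protein Puma, at 0.44 ± 0.13 in males (adjusted p = 0.502, groups without overlap). Gdf15, singled out after its values were seen, had the most negative value among the targets in females, -1.71 ± 0.60 (adjusted p = 0.158), but -0.16 within the shared slide.

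In the Bcl-2 family 20 of 21 genes were measured and none passed. Bmf, a BH3-only protein, was at -0.32 ± 0.13 in females (adjusted p = 0.210) and Bcl2l10 at 0.52 ± 0.15 in males (adjusted p = 0.502). Of 33 caspases, death adaptors and inhibitors 29 were measured and Cradd was the only one called. Birc5, survivin, was at 0.31 ± 0.11 in females (adjusted p = 0.170) and Xiap, a caspase inhibitor, at -0.35 ± 0.19 in males (adjusted p = 0.735). Casp2, the caspase that Cradd recruits, named for that role after its values were seen, was at -0.16 ± 0.16 in females (adjusted p = 0.608). Of 17 genes of polyamine metabolism 15 were measured and none passed. Oaz1, the antizyme that restrains polyamine synthesis, had the smallest p in males (adjusted p = 0.648), but its probe was saturated on all 14 arrays and no fold is given. Agmat, with the smallest p in females (adjusted p = 0.0618), was not well above background in any female pool, so no fold is given.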

How the data were processed

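Agilent 1-colour arrays of rat CP, 14 in all, were used. The deposited scanner files hold the intensity of each spot, from which the authors' software, Agilent Feature Extraction 10.5.1.1, had subtracted background and removed spatial trends. A deposited table of log2 values, made by the authors, was set against the log2 scanner signals and differed by a constant for each array (-0.44 to 0.30, with 100% of probes within 0.01, column medians 7.59 to 7.88). It was used as an alternative, and how its columns were centred beyond this constant is not known. The arrays were annotated on rn4, and genes were named through RefSeq of GRCr8 for 18004 probes.

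Control spots and outlier spots (222 to 877 of 42877 per array) were left out, saturated spots (425 to 851) were kept, and the mean was taken over the spots of a probe. The log2 signal minus the array median was tested by lmFit and eBayes of limma 3.58.1 (R 4.3.3) with Benjamini-Hochberg adjustment within each sex, and the male minus the female effect in a fit of all arrays, after tests on simulated data. Levels not well above background give bounds ("at least"), computed against the lowest signal well above background on each array. The number of arrays limits the precision.

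Named genes were the 9 genes, list genes that passed (at most 4 per list and direction) or, where none did, had the smallest p, and the 2 genes most alike. Genes and lists were chosen with earlier results of these data known. Alternatives were another scaling, normexp (offset 50, on the median signal, since the mean signal was not used here), filters, blocks, array weights, the methods' t-test, the value table, the mean over probes and leaving out each pool. The fit over probes was added after the data were seen. Python 3.11.15 with numpy 2.4.6, pandas 2.3.3 and matplotlib 3.10.9 handled tables and plots.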

Additional observations from a re-analysis of the deposited data

Results flagged for a closer look

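The Bcl2l1 variant probe A_64_P054730 was marked because its effect in males minus that in females, -1.24, passed the test (limma adjusted p = 0.0379). On the same probe OOX replicate 4 lay apart from the other OOX pools, with a gap of 0.845 of the whole range. This exceeds Dixon's 95% limit for 4 samples. On the second Srm probe OOX replicate 2 lay apart, with a gap of 0.925 of the range. Chance marks about 1 in 20 groups of 4, and groups of 3 were not examined.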

How the results depend on the processing

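The count of genes that passed in OVX, 1 of 9, was 0 with normexp, with the replicate number, the slide or the scan day as a block and in the methods' t-test, and 0 to 1 when a pool was left out. In OOX the count was 0 throughout, and for the difference between the sexes it was 2 with array weights and 0 otherwise. Over all features the count in females was 1989, against 203 with normexp, 143 with quantile normalization, 506 with all groups in 1 fit, 453 without dim probes, 34 with the scan day and 0 with the slide or the replicate number as a block (1915 and 6306 at an unadjusted p under 0.05), 13 in the methods' t-test and 4 to 1998 without 1 pool. In males it was 17, against 0 to 37, and for the difference 63, against 15 to 273.

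Of 576 values of the 9 genes under alternatives, 37 changed sign, none of them past the threshold. For OVX these were Cdkn1a with quantile normalization (0.029), slide (0.14) and scan day (0.14), and Bcl2l1 with slide (0.13) and the mean over probes (0.094). In OOX they were Cdkn1a (0.034), Bcl2l1 (0.082) and Cradd (-0.075) with quantile normalization, and Mdm2 (0.043), Cdkn1a (0.064), Bcl2l1 (0.078) and Cradd (-0.20) with normexp. With slide they were Mdm2 (0.23), Cdkn1a (0.17), Bcl2l1 (0.26) and Bcl2 (0.021). Further ones in OOX were Mdm2 (0.0082) and Bcl2l1 (0.031) with array weights, Cdkn1a with the value table (0.013) and the mean over probes (0.13), and Srm with the mean over probes (-0.042). Without 1 pool, in OOX, Mdm2 ranged from -0.11 to 0.11, Cdkn1a from -0.075 to 0.083 and Bcl2l1 from -0.086 to 0.12. For the difference between the sexes they were, with slide, Mdm2 (0.0047), Cdkn1a (-0.015) and Srm (0.39), Cdkn1a with scan day (-0.14), Srm with array weights (0.028) and Bcl2l1 with the mean over probes (-0.33), and without 1 pool Srm ranged from -0.18 to 0.11. The cause was not tested.

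Whether the replicate numbers pair the samples is not stated in the labels, and the main fits treat the pools as unpaired. Same-numbered pools correlated by -0.02 to 0.14 in females and -0.31 to 0.14 in males in their deviations from the group means. With so few pools these values cannot exclude a pairing. In females pools 1 and 3 correlated best with their own number and pool 2 did not, and in males none did. With the replicate number as a block Cradd in OVX had an adjusted p of 0.0732, Chek2 and Dclre1c had 0.0732 and 0.0754, and the Bcl2l1 variant probe had 0.0933 in OVX and 0.184 for the difference between the sexes. The scan day could not be tried in males, all scanned on 1 day. Within a slide only 1 or 2 pools of a group stood against each other.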
